A study of Mus musculus with 4 samples.

Results

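Tmem158, Tmem86a, Nrxn3 and Kcnh1 are 4 genes of membrane proteins, followed here across the luminal cells of the mouse mammary gland. They were picked out of the 52636 genes of the deposited table by their symbols, and all 4 were in the table and were counted in all 4 libraries by their unique molecular identifiers (UMIs), where 1 UMI is 1 mRNA molecule that a droplet captured. Tmem158 and Tmem86a were chosen by their levels in 1 group of mature luminal (ML) cells, cluster 11, which differed from those of the other ML cells in WT mice. Nrxn3 and Kcnh1 were chosen by the difference between genotypes in cluster 11. Those contrasts are therefore given as descriptions.

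The luminal epithelium of the gland lines the duct and holds progenitor cells and mature, hormone-sensing cells. ErbB3 is a receptor of the EGF receptor family that signals by activating its partners, and the V943R substitution impairs that activator function. TMEM158 was first described as a membrane protein induced by activated RAS in senescent cells. TMEM86A is a lysoplasmalogenase, an enzyme that breaks down lyso forms of vinyl ether phospholipids. NRXN3 is a neurexin, a cell adhesion molecule best known from the presynaptic side of neuronal contacts, where it binds neuroligins and other partners. KCNH1, also called EAG1, is the pore-forming subunit of a voltage-gated potassium channel and is best known in brain and in tumors.

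The glands came from C57BL/6N mice aged 6 weeks. The controls were Erbb3+/+;MMTV-Cre (WT) and the others were Erbb3V943R/V943R;MMTV-Cre (mutant), so both carried the MMTV-Cre transgene, whose viral promoter drives Cre in mammary epithelium. Thoracic and abdominal glands of 3 mice per genotype were pooled, digested, enriched for epithelium and sorted for luminal cells, and each pool was sequenced as 2 droplet libraries. With 1 pool per genotype, genotype and pool cannot be told apart, no p-value was computed, and the spread between the libraries of a genotype is technical.

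The deposited table names the library of each cell but not its replicate number. The libraries are therefore called A and B within a genotype, without pairing. They held 6849 to 9627 cells and 30019745 to 38009351 UMIs each, 32439 cells in all, with medians of 3154 to 4027 UMIs per cell. The cluster numbers and classes are those the authors deposited: luminal progenitor (LP, clusters 1 and 2), luminal intermediate (LI, cluster 3) and ML (clusters 4 to 11). Cluster 11 held 1454 and 1409 cells in the WT libraries but 321 and 349 in the mutant ones, out of 14188 and 9612 ML cells, and the other ML clusters held 11325 WT and 8942 mutant cells. Pairs of libraries shared 71 to 111 cell barcodes. Erbb3 itself was at 60.9 and 63.3 counts per 1000000 UMIs (CPM) in WT libraries A and B and at 29.8 and 30.8 in their mutant counterparts, which is a level and does not show the substitution. The 6 mature luminal markers summed to 4909 and 5082 CPM in WT cluster 11 and to 4193 and 4639 in mutant cluster 11, against 36.1 to 45.4 for the 5 luminal progenitor markers. Immune markers summed to 1.12 and 3.65 CPM in WT and 4.64 and 6.77 CPM in mutant cluster 11, with Ptprc at 0, and endothelial markers to 11.1 to 13.4, with Cdh5 at 0. Genes that respond to tissue dissociation summed to 22608 and 23419 CPM in WT cluster 11 and to 20355 and 19907 in mutant cluster 11, and their part in the results was not tested.

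A level, in CPM, is the sum of a gene's UMIs in a set of cells divided by the sum of all UMIs in that set. A gene met the rule for cluster 11 against the other ML clusters when the levels differed 1.5-fold or more, with at least 50 UMIs in both sets together and the same direction in both libraries. Between genotypes the rule asked for a 1.5-fold difference, at least 50 UMIs on the side that had more, and no overlap between the mutant and the WT libraries. Intervals are at 95%. Those of log2 ratios are exact conditional binomial, those of levels exact Poisson and those of shares of cells Clopper-Pearson, and all of them cover counting error only. A 3′ count cannot rank 1 gene above another, so levels are compared within a gene.

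In WT cells, 3 of the 4 genes were higher in cluster 11 than in the other ML clusters by the rule, which 5.05% of the 15016 genes tested met in that direction. Tmem86a was the other one and was lower, which 9.52% of genes were. The contrast had chosen Tmem158 and Tmem86a, and the choice of Nrxn3 and Kcnh1 had used the same WT values of cluster 11, so nothing is read from these shares.

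**Figure D1:**
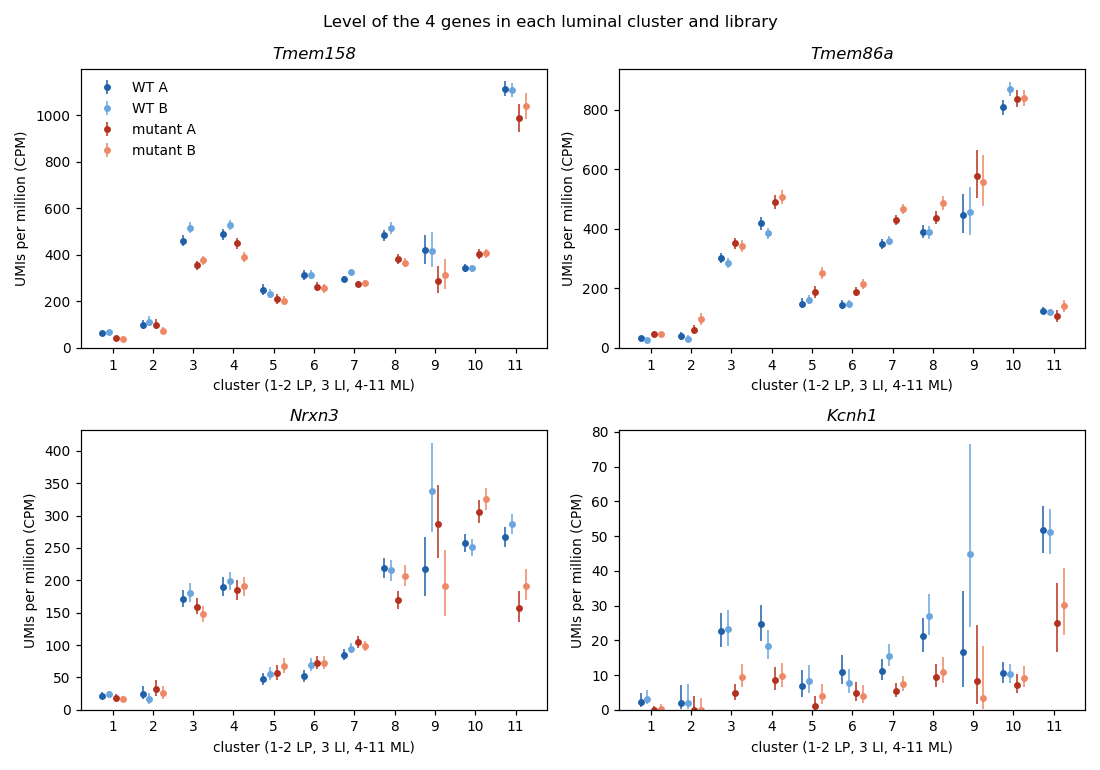
Levels of the 4 genes in CPM (linear axis) in each luminal cluster, with 1 point per library for WT A and B and mutant A and B. Tmem158 and Kcnh1 peaked in cluster 11, Tmem86a peaked in cluster 10 and was low in cluster 11, and Nrxn3 was high in clusters 9, 10 and 11 of WT but not in cluster 11 of the mutant.

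Tmem158 (ENSMUSG00000054871) is a gene of 1712 bp on the minus strand of chromosome 9, chr9:123259053-123260764 in GRCm38. Its level in cluster 11 was 1113 and 1108 CPM in the WT libraries and 986 and 1037 CPM in the mutant libraries. In the other ML clusters it was 367 and 380 CPM in WT and 336 and 322 CPM in mutant. All 4 libraries were thus about 3 times as high in cluster 11 as outside it, with a ratio of 2.97 in WT and 3.08 in mutant. On the log2 scale this was 1.57 (1.53 to 1.6) in WT and 1.62 (1.56 to 1.69) in mutant, and among all genes it stood at rank 29 from the highest of 15016 in WT and 46 of 14591 in mutant. A cluster is drawn from the same cells, so that this is no test.

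The order of the WT clusters ran from cluster 11 at 1110 CPM to clusters 4, 8 and 3 at 510, 497 and 488 CPM. Clusters 4 and 8 did not differ beyond their libraries and intervals, and neither did 8 and 3. They were followed by cluster 9 at 418 CPM, cluster 10 at 342 CPM, and clusters 6 and 7 at 314 and 312 CPM, which did not differ from each other. Cluster 5 had 241 CPM, and the LP clusters 2 and 1 were lowest with 105 and 66.7 CPM. Cluster 11 did not overlap with the next cluster in libraries or intervals. Clusters 12 and 13, outside the luminal classes, held 43 and 83 WT and 33 and 81 mutant cells and had 499 and 295 CPM of Tmem158 in WT, so that UMIs of Tmem158 at the levels of clusters 5 to 10 were found in such cells as well.

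Detection in single cells followed the levels. A UMI of Tmem158 was seen in 86.1% of WT and 86.3% of mutant cluster 11 cells, and 51.1% and 50% of them held 3 or more. Random thinning put every cell at 1000 UMIs and dropped 45 WT and 252 mutant cells that had fewer, and the shares were then 59.2% (57.4 to 61.0) and 55.5% (51.6 to 59.3). At the same depth the share was 26.6% in the other WT ML clusters and 3.94% in WT LP cells, the lowest of the classes. The unthinned share in WT LP was 10.9%, at a median depth of 2018 UMIs per cell against 2922 in WT cluster 11.

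Between genotypes, Tmem158 was lower in the mutant in most clusters, by less than 1.5-fold in 9 of the 10 where it was lower. The other was LP cluster 1, where WT had 63.8 and 69.3 CPM and mutant 42.3 and 39.5, a log2 ratio of −0.71 (−0.93 to −0.49). The log2 ratio of mutant over WT was −0.13 (−0.19 to −0.07) in cluster 11, −0.19 in the other ML clusters and −0.42 (−0.49 to −0.35) in LI. In LP the WT libraries had 72.3 and 78.7 CPM and the mutant ones 55.7 and 47.2, a log2 ratio of −0.57 (−0.75 to −0.39). Without LP cells that held a UMI of a mature luminal marker, an alternative added once the data had been seen, it was −0.25. It passed 1.5-fold under 4 others, at −0.63 without WT library A, −0.68 without mutant library A, −0.60 with TMM factors and −0.66 without the cells of the fewest UMIs. Both mutant libraries lay below both WT libraries in 9 of 11 clusters, and the libraries overlapped in cluster 2. Cluster 10 was the exception, where WT had 343 and 341 CPM and mutant 402 and 406, a log2 ratio of 0.24 (0.17 to 0.31). In none of cluster 11, the other ML clusters, LP, LI or cluster 10 did the difference as first computed meet the rule between genotypes, although the ratio was −0.67 in LI without the cells of the highest doublet scores. In cluster 10 the rule was met by 2.35% of genes for higher and 1.07% for lower levels in the mutant. In all cells together it was −0.47, and −0.59 as a mean over cells and −0.61 after thinning, both past 1.5-fold, and cluster 11 took 12.9% of all UMIs in WT and 3.86% in mutant.

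Tmem86a (ENSMUSG00000010307) spans 4177 bp on the plus strand at chr7:47050601-47054777. Its highest level was in cluster 10, with 808 and 869 CPM in the WT libraries and 836 and 838 CPM in the mutant libraries, where the genotypes overlapped. In cluster 11 it had 125 and 120 CPM in WT and 107 and 140 CPM in mutant, again overlapping. The other ML clusters together had 429 and 438 CPM in WT and 464 and 497 CPM in mutant. Cluster 11 was thus 3.53 times lower in WT and 3.85 times lower in mutant, log2 ratios of −1.82 (−1.91 to −1.74) and −1.94 (−2.11 to −1.78), and Tmem86a stood at rank 321 from the lowest of 15016 genes in WT.

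Cluster 11 was not the lowest of the luminal clusters, but its level was close to the 127 CPM of WT cluster 13, outside the luminal classes. The share of these UMIs that was free RNA was not tested. In WT, cluster 10 with 840 CPM was followed by clusters 9, 4 and 8 with 450, 400 and 389 CPM. Clusters 4 and 8 overlapped in libraries and intervals, whereas 9 and 4 overlapped in intervals alone. Clusters 7 and 3 had 354 and 293 CPM. Clusters 5 and 6 had 155 and 146 CPM, cluster 11 had 123 CPM, and the LP clusters 2 and 1 had 34.3 and 29.4 CPM. Leaving clusters 5 and 6 out of the comparison moved the WT log2 ratio to −2.05. After thinning, a UMI was seen in 8.87% (7.86 to 9.97) of WT cluster 11 cells, 50.2% of WT cluster 10 cells and 2.19% of WT LP cells. Before thinning these shares were 20.7%, 79.7% and 5.72%.

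Tmem86a was the gene of the 4 that was higher in the mutant in most clusters. Both mutant libraries lay above both WT libraries in 9 of 11 clusters and overlapped with them in clusters 10 and 11. The log2 ratio was 0.03 (−0.16 to 0.21) in cluster 11, −0.00453 (−0.05 to 0.04) in cluster 10, 0.15 (0.12 to 0.18) in the other ML clusters and 0.24 (0.16 to 0.32) in LI. None of these met the rule for higher levels, which was met by 2.7% of genes in cluster 11, 2.66% in the other ML clusters and 2.83% in LI. In LI the ratio was 0.34 without the cells of the highest doublet scores and 0.0611 after thinning. In LP the WT libraries had 33.2 and 28.1 CPM and the mutant libraries 48.3 and 57.9, which gave 0.81 (0.59 to 1.04) and met the rule, as did 2.23% of 11219 genes in that direction. This value moved with cells that carried mature luminal markers. At least 1 UMI of such a marker was found in 42.1% of WT and 38.6% of mutant LP cells, and without these cells the log2 ratio was 0.43, while it was 0.50 without the cells of the highest doublet scores, so that the rule was no longer met under either of these alternatives.

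Nrxn3 (ENSMUSG00000066392) is by far the longest of the 4 genes, with 1612060 bp on the plus strand at chr12:88722876-90334935. In cluster 11 it had 267 and 286 CPM in the WT libraries and 158 and 192 CPM in the mutant libraries. In cluster 10 it had 257 and 251 CPM in WT and 306 and 326 CPM in mutant. The genotypes did not overlap in either cluster, and the directions were opposite. The log2 ratio of mutant over WT was −0.65 (−0.80 to −0.50) in cluster 11, where it ranged from −0.86 to −0.48 over the 4 pairs of libraries, and 0.32 (0.24 to 0.40) in cluster 10. Without mutant library A the ratio in cluster 11 was −0.53, which is under 1.5-fold, so that the rule was no longer met.

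Nrxn3 had been chosen for the difference in cluster 11, which met the rule there together with Kcnh1. The rule was met by 3.17% of 10223 genes in that direction, and Nrxn3 stood at rank 293 from the lowest. Libraries below WT in cluster 11 and above WT in cluster 10 were found for 2.4% of 9799 genes, among them Nrxn3 and Tmem158. In the other ML clusters as a whole Nrxn3 had 157 and 159 CPM in WT and 160 and 167 CPM in mutant, a log2 ratio of 0.05 (−0.00 to 0.09). In LI it had 171 and 181 CPM in WT against 159 and 148 in mutant, a log2 ratio of −0.19 that turned to 0.0624 after thinning. In LP it had 22.3 and 22.1 CPM in WT against 21.5 and 18.2 in mutant. The LP ratio of −0.17 (−0.48 to 0.13) was 0.73 without LP cells that held a UMI of a mature luminal marker, 0.0238 after thinning and −0.49 without the cells of the highest doublet scores. Over the 11 luminal clusters both mutant libraries were higher in 5, lower in 4 and overlapping in 2.

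**Figure D2:**
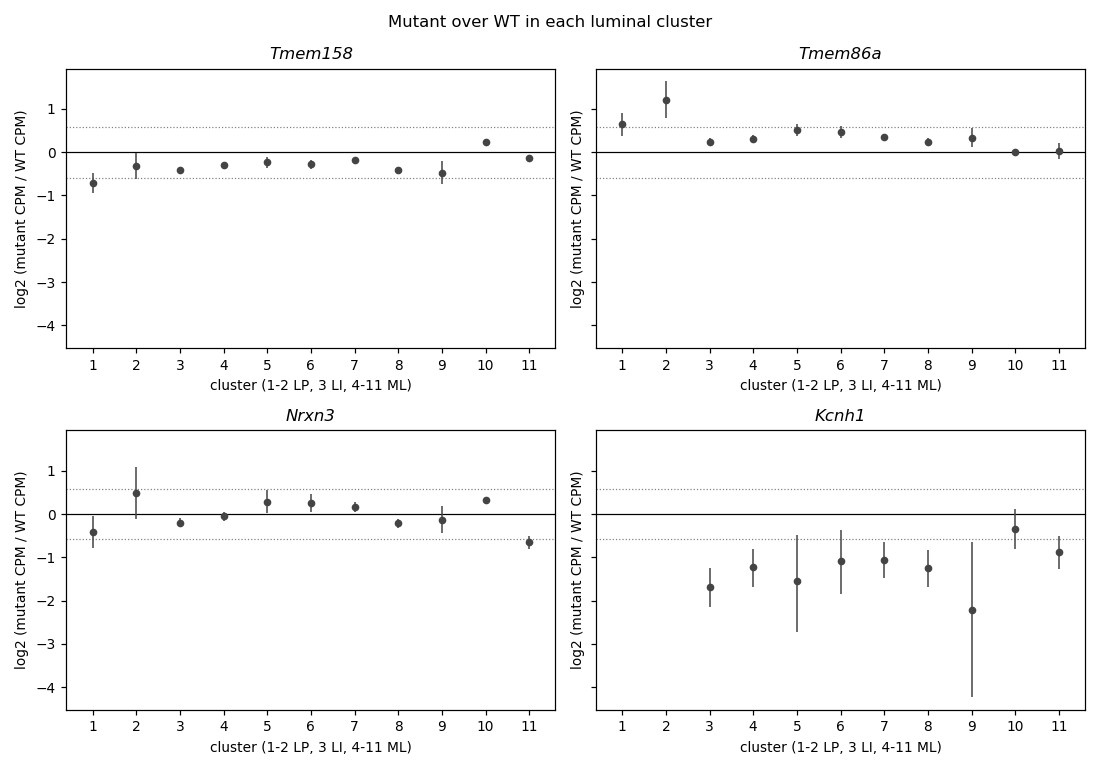
Log2 ratio of mutant over WT CPM for each gene in clusters 1 to 11, with 95% exact conditional binomial intervals (counting error only), a solid line at 0 and dotted lines at 1.5-fold. Kcnh1, not drawn for clusters 1 and 2 with their few counts, lay below 0 in clusters 3 to 11, Tmem86a near or above 0, Tmem158 below 0 except in cluster 10 at 0.24, and Nrxn3 on both sides, with −0.65 in cluster 11 and 0.32 in cluster 10.

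For Nrxn3, the difference between cluster 11 and the other ML clusters together was larger in WT than in mutant cells. The choice of Nrxn3 had used the cluster 11 levels of both genotypes, so this restates that contrast and is a description. The ratio of cluster 11 to the other ML clusters was 1.75 in WT, a log2 value of 0.81 (0.74 to 0.87) at rank 329 of 15016 genes, and 1.08 in mutant, 0.11 (−0.03 to 0.25) at rank 5564 of 14591. The WT log2 ratio was 0.58 without clusters 5 and 6, just under 1.5-fold, so that the rule was not met against the remaining ML clusters. In WT, cluster 11 with 277 CPM, cluster 9 with 266 CPM and cluster 10 with 254 CPM were highest. Cluster 9 overlapped with clusters 11 and 10 in libraries and intervals. The libraries of cluster 11, at 267 and 286 CPM, did not overlap with those of cluster 10, at 257 and 251 CPM. Cluster 9 was the least even of these clusters, with 218 and 338 CPM in the WT libraries from 190 UMIs in all. Below them came cluster 8 with 217 CPM, cluster 4 with 195 CPM and cluster 3 with 176 CPM, then cluster 7 with 90.2 CPM, clusters 6 and 5 with 60.8 and 51.1 CPM, and the LP clusters 1 and 2 with 22.6 and 20.7 CPM. After thinning, a UMI was seen in 21.1% of WT and 11.7% of mutant cluster 11 cells, against 21.4% and 25.4% in cluster 10 and 1.17% and 1.22% in LP. Before thinning the cluster 11 shares were 48.6% and 37.8%.

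Kcnh1 (ENSMUSG00000058248) spans 319386 bp on the plus strand at chr1:192190774-192510159. Its counts were the lowest of the 4 genes. The cluster 11 cells of the WT libraries held 231 and 252 UMIs, which was 51.6 and 51.1 CPM, and those of the mutant libraries held 27 and 40 UMIs, which was 25.1 and 30.1 CPM. In the other ML clusters it had 14.5 and 15.0 CPM in WT and 6.47 and 7.77 CPM in mutant. The genotypes were well apart in both places, and cluster 11 was above the rest within each genotype.

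The mutant level was 1.85 times lower in cluster 11, a log2 ratio of −0.88 (−1.27 to −0.51) that ranged from −1.04 to −0.76 over the 4 pairs of libraries and stood at rank 113 from the lowest of 10223 genes. Kcnh1 had been chosen for this contrast. A difference of the same direction was found outside cluster 11. In the other ML clusters, whose cells the choice had not used, the mutant level was 2.07 times lower, a log2 ratio of −1.05 (−1.24 to −0.85), at rank 20 from the lowest of 14792 genes. There 1.04% of genes met the rule for lower levels, and Kcnh1 was the 1 of the 4 that did. In LI the WT libraries had 22.6 and 23.1 CPM and the mutant ones 4.77 and 9.52, a log2 ratio of −1.69 (−2.16 to −1.24) at rank 4 of 10525, where 1.03% of genes met the rule. Of the LI cells, 55.2% lay in the top 6% of doublet scores, and without these the ratio was −1.69 as well. The doublet calls from these scores were not usable, so the part of doublets was not tested.

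Both mutant libraries were below both WT libraries for Kcnh1 in all 11 luminal clusters, which held for 0.214% of the 9825 genes with at least 500 WT UMIs in these clusters. The opposite, both mutant libraries above both WT libraries in all 11, held for 0.458% of those genes and for none of the 4. By the levels of the libraries pooled, the shares were 2.43% and 5.08%. The choice of Kcnh1 had used 1 of these clusters, cluster 11. In cluster 10 the separation was small, 10.4 and 10.2 CPM in WT against 7.10 and 9.11 CPM in mutant, and the interval of the log2 ratio of −0.34 (−0.80 to 0.12) included 0. LP cells were near the limit of detection, with 9 and 13 UMIs in WT libraries A and B and 0 and 1 in mutant A and B. One LP cell of 3123 in the mutant held a UMI, a share of 0.0320% with an upper bound of 0.178%, against 0.566% of WT LP cells.

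In WT the level of Kcnh1 in cluster 11 was 3.48 times that in the other ML clusters, a log2 ratio of 1.8 (1.63 to 1.97) at rank 21 of 15016 genes, and the choice of Kcnh1 had used the same WT values of cluster 11. In mutant it was 3.90 times, 1.96 (1.56 to 2.35) at rank 24 of 14591. Higher levels by the rule were met in mutant by 7.63% of genes, among them Tmem158 and Kcnh1 but not Nrxn3, and lower levels by 12.9%, among them Tmem86a. The order of the WT clusters was cluster 11 with 51.4 CPM, clusters 9, 8, 3 and 4 with 28.1, 23.8, 22.8 and 21.2 CPM, of which no neighbors differed, then clusters 7, 10, 6 and 5 with 13.5, 10.3, 9.27 and 7.49 CPM, and clusters 1 and 2 with 2.75 and 2.01 CPM. Cluster 9 again was uneven, at 16.6 and 44.8 CPM in the WT libraries. The thinned share of cells was 5.24% in WT and 3.29% in mutant cluster 11, and 15.1% and 8.81% before thinning.

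Some markers differed between genotypes in cluster 11 beside these genes, and apart from the fibroblast markers their part was not tested. The 5 proliferation markers summed to 27.7 and 30.2 CPM in WT and to 33.4 and 46.6 in mutant, and the immune markers are given above. Of the luminal progenitor markers, 3 could be tested. Elf5, a transcription factor of progenitors, was higher in mutant cluster 11 by the rule with 16.2 against 9.78 CPM. Ltf, which encodes lactoferrin, was lower by the rule with 5.81 against 11.1 CPM, from 39 mutant UMIs for Elf5 and 14 for Ltf. Csn3 had 12.5 CPM in mutant against 17.4 CPM in WT and met no rule. Of all genes tested there, 2.7% met the rule for higher and 3.17% for lower levels. The 5 fibroblast markers summed to 34.4 and 38.3 CPM in WT and to 22.3 and 8.27 in mutant, mostly from Dcn. A fibroblast marker UMI was present in 3.32% of WT and 1.49% of mutant cluster 11 cells. Without those cells, an alternative chosen after seeing the data, the log2 ratios of mutant over WT were −0.88 for Kcnh1, −0.64 for Nrxn3, −0.12 for Tmem158 and 0.05 for Tmem86a. In the other ML clusters these markers summed to 11.2 and 8.91 CPM in WT and to 4.56 and 4.15 CPM in mutant. Dcn alone made this difference, with 9.18 CPM in WT and 3.38 CPM in mutant. The others were too low to test. Col1a1 (0.46 and 0.53 CPM), Col3a1 (0.19 and 0.25) and Pdgfra (0 and 0.07) were higher in mutant, and Col1a2 (0.17 and 0.12) was lower. Without the cells that held a fibroblast marker UMI, again chosen after seeing the data, the log2 ratio of Kcnh1 in the other ML clusters was −1.03.

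Other markers moved with the contrast of cluster 11 against the other ML clusters in WT. The 5 proliferation markers all met the rule for lower levels in cluster 11, where they summed to 27.7 and 30.2 CPM against 304 and 316 in the other ML clusters. Dcn, the 1 fibroblast marker with enough UMIs to test, was higher in cluster 11 with 35.6 against 9.18 CPM. Of the other fibroblast markers, Col1a1 had 0.53 against 0.46 CPM and Pdgfra 0.11 against 0. Col1a2 had 0.11 against 0.17 CPM and Col3a1 0.11 against 0.19. Of the 3 basal markers tested, Acta2 with 18.0 against 9.44 CPM and Krt5 with 1.81 against 0.97 CPM were higher. Krt14 had 2.98 against 2.96 CPM and met no rule. Without cells that held a fibroblast marker UMI, also chosen after seeing the data, the log2 ratios were 1.59 for Tmem158, −1.84 for Tmem86a, 0.81 for Nrxn3 and 1.81 for Kcnh1. The part of the basal markers was not tested, and the values without the proliferating clusters 5 and 6 were 1.48, −2.05, 0.58 and 1.64.

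The share of each gene's UMIs that came from cluster 11 was smaller in the mutant. So was its share of all UMIs, at 12.9% in WT and 3.86% in mutant. For Kcnh1 it went from 35.1% in WT to 15.5% in mutant, for Tmem158 from 32.1% to 12.2%, for Nrxn3 from 22.4% to 4.79% and for Tmem86a from 4.77% to 1.24%. Cluster 10 supplied 36.7% of WT and 27.8% of mutant Tmem86a UMIs, and 23.1% and 28.9% of those of Nrxn3. It held 14.5% of all UMIs in WT and 12.9% in mutant. In all cells the log2 ratio of mutant over WT was −1.44 (−1.60 to −1.29) for Kcnh1, −0.47 for Tmem158, −0.16 for Nrxn3 and 0.23 for Tmem86a. Kcnh1 met the rule there, as did 1.17% of 16450 genes for lower levels, while 3.23% met it for higher levels and Tmem86a did not.

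Part of these overall values went with the share of all UMIs that each cluster held, which depends on cell number and on UMIs per cell. When the mutant levels within clusters were weighted by the WT shares of UMIs, the log2 ratios were −1.07 for Kcnh1, −0.19 for Tmem158, −0.07 for Nrxn3 and 0.20 for Tmem86a. When the WT levels were kept and the mutant shares were used, they were −0.28, −0.25, −0.17 and 0.01. Most of the overall difference of Kcnh1 and Tmem86a was thus kept with WT shares, most of that of Nrxn3 with WT levels, and that of Tmem158 was divided between them.

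**Figure D3:**
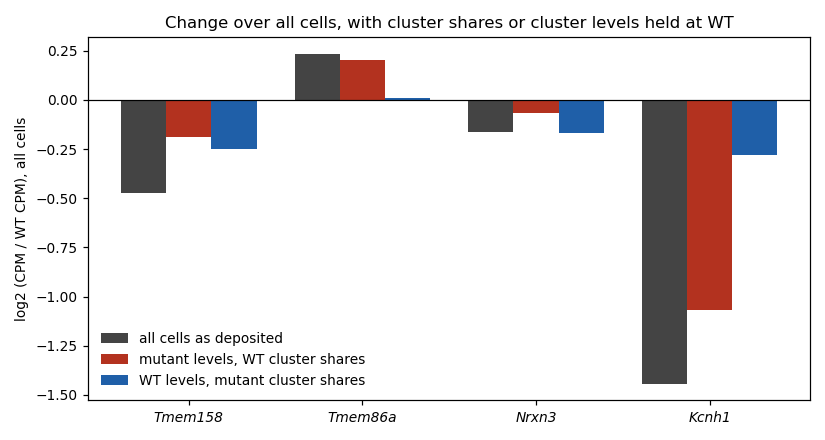
Log2 ratio of mutant over WT CPM in all cells for each gene as measured, with the mutant levels weighted by WT cluster shares, and with WT levels weighted by mutant cluster shares. For Kcnh1 the values were −1.44, −1.07 and −0.28, and for Nrxn3 −0.16, −0.07 and −0.17.

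Single cells were then sorted by whether they held Tmem158, Tmem86a, both or neither, at 1000 UMIs per cell. In WT cluster 11, 54.4% of cells held Tmem158 alone, 4.02% held Tmem86a alone, 4.86% held both and 36.7% held neither. The mutant cells of cluster 11 were divided in much the same way, with 50.1%, 4.93%, 5.38% and 39.6%. In WT cluster 10 the order was turned around, with 13.2% for Tmem158 alone, 39.6% for Tmem86a alone and 10.6% for both. The other WT ML clusters pooled, which include cluster 10, lay between them in these states, with 20.8%, 23.0% and 5.73%. Singly, clusters 5 to 8 held both genes in 1.59% to 4.56% of cells, below cluster 11. Neither gene was held by 50.4% of the pooled cells, against 36.6% in cluster 10, and by 94.0% of WT LP cells.

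**Figure D4:**
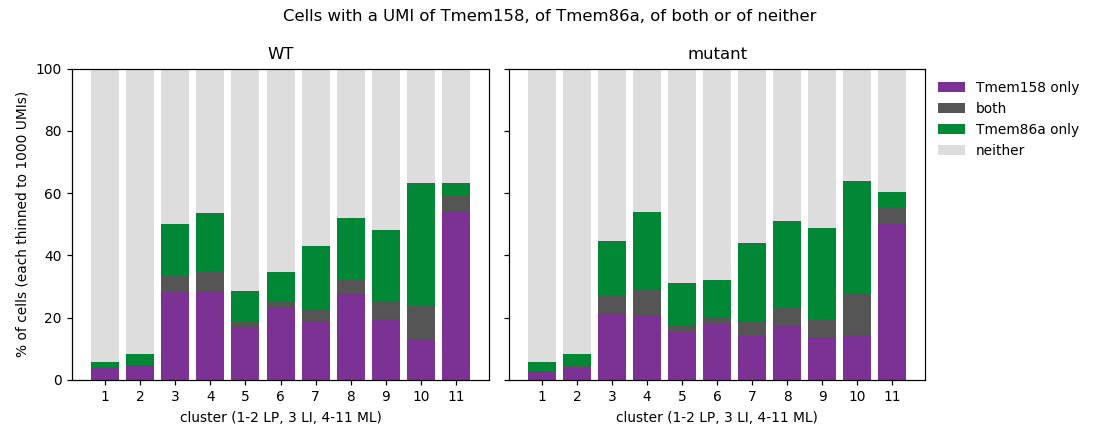
Share of cells (percent, bars from 0) holding a UMI of Tmem158 only, both genes, Tmem86a only or neither after thinning to 1000 UMIs per cell, by cluster and genotype. Cluster 11 was mostly Tmem158 only or neither in both genotypes, and cluster 10 had more Tmem86a only, 39.6% in WT and 36.1% in mutant.

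The pair of genes marked cluster 11 only in part. Of the thinned WT ML cells, 1484 held 2 or more UMIs of Tmem158 and none of Tmem86a, and 52.3% of these were cluster 11 cells, against 20.2% of all WT ML cells. In the mutant there were 543 such cells, of which 26.9% were in cluster 11, against 7.01% of all mutant ML cells. Without thinning, 18.0% of WT cluster 11 cells held both genes.

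Co-detection of Tmem158 with the other genes was then set against the product of the separate shares. Within WT cluster 11, Tmem158 was in 86.1% of cells, which bounds this ratio from above. Observed cells relative to the product were 1.01 for Tmem158 with Tmem86a, 1.02 with Nrxn3 and 1.05 with Kcnh1, from 514, 1224 and 389 cells with both, and 1.05, 1.12 and 1.29 when 2 UMIs or more were asked of each gene. The 1.29 rested on few cells, none of them thinned. Of WT cluster 11 cells, 1.47% held 2 UMIs of Kcnh1 and 0.17% held 3 or more. In mutant cluster 11 the ratios at 1 UMI were 1.00, 1.04 and 1.06. Kcnh1 was found in 15.8% of the WT cluster 11 cells with Tmem158 and in 10.5% of those without it, Nrxn3 in 49.7% and 42.1%, and Tmem86a in 20.9% and 19.8%. After thinning to equal depth these shares were 5.42% and 4.97% for Kcnh1, 21.3% and 20.8% for Nrxn3, and 8.20% and 9.85% for Tmem86a. For the last pair the thinned ratio was 0.92 from 139 cells. Nrxn3 with Kcnh1 gave 1.12 from 234 WT cells and 1.20 from 38 cells after thinning, whereas Tmem86a with Kcnh1 gave 0.75 from 67 cells and 0.68 from 9 cells. Tmem86a with Nrxn3 gave 1.24 from 358 WT cells but 0.93 from 50 cells after thinning to equal depth.

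Across the other WT ML clusters, which differ in level, the ratios spread more widely. After thinning, Tmem158 with Tmem86a was at 0.75 from 648 cells, Tmem158 with Nrxn3 at 1.31, Tmem158 with Kcnh1 at 1.48 from 61 cells, and Tmem86a with Kcnh1 at 0.61 from 27 cells. In the mutant the first of these was 0.91. Of all 2863 WT cluster 11 cells, 40.3% held Tmem158 as the only one of the 4 genes after thinning, 27.7% held none, 11% held Tmem158 with Nrxn3, and 2 cells held all 4. In mutant cluster 11 these were 42.8%, 34.5%, 5.53% and 0 of 669 cells. Counts this sparse limits what co-detection can show, and cells of a library are not replicates.

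Over the 11 luminal clusters of WT, the log levels of Tmem158 and Kcnh1 were the most alike of the 6 pairs, with a Pearson r of 0.95, followed by Nrxn3 with Kcnh1 at 0.91 and Tmem158 with Nrxn3 at 0.89. Tmem158 with Tmem86a had 0.67, and over the 8 ML clusters alone it had −0.21, while Tmem158 with Kcnh1 had 0.93. These are descriptions over clusters that share libraries. The genes with the most similar pattern to Tmem158 among 9821 genes were Ptpn1 (a tyrosine phosphatase), Smim3, Dgat2 (triglyceride synthesis), Aldh3a2 (a fatty aldehyde dehydrogenase) and Ube2q2, with r of 0.97 to 0.98. Ptpn1 had 389 CPM in cluster 11 and 222 CPM in cluster 10, and it was also among the genes most like Kcnh1, with Hdac11, Svil, Tmprss2 and Ube2q2. Tmem86a was followed most closely by Tgm2 (a transglutaminase), Gm14005, Gpx3 (a secreted glutathione peroxidase), Mgat5 and Apc, with r of 0.98 to 0.99. Gpx3 had 20412 CPM in cluster 10 and 5215 CPM in cluster 11 of WT, and Tgm2 had 2652 and 830 CPM.

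The genes most like Nrxn3 were Rnf103, Slc7a2 (a cationic amino acid transporter) and St3gal1 (a sialyltransferase), and then 2 long noncoding RNAs on the same strand just upstream of it. AC159629.1 (chr12:88631356-88706819) ends 16056 bp and CT572991.3 (chr12:88632269-88665399) 57476 bp before the start of Nrxn3. In cluster 11, AC159629.1 had 15.0 and 20.1 CPM in WT and 13 and 10.5 CPM in mutant, a log2 ratio of −0.60. CT572991.3 had 10.3 and 12 CPM in WT and 5.57 and 7.52 CPM in mutant, a log2 ratio of −0.75. Both had lower mutant libraries there, and the interval of the latter reached 0.02. In cluster 10 the ratios were 0.27 (−0.07 to 0.61) and 0.23 (−0.16 to 0.61), both with intervals that included 0, and the libraries of AC159629.1 overlapped.

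Another transcript, AC115910.1, lies within an intron of Nrxn3 on the same strand (chr12:90068099-90072373), and was singled out after its values were seen. It had 12.5 and 11.1 CPM in WT and 5.57 and 4.51 CPM in mutant cluster 11, from 111 and 12 UMIs, a log2 ratio of −1.24 (−2.24 to −0.38), and 0.11 (−0.32 to 0.54) in cluster 10. AC115744.1, also within Nrxn3 on its strand, had overlapping libraries in cluster 11, with 2.68 and 5.88 CPM in WT and 1.86 and 3.76 CPM in mutant, and a ratio of −0.04 in cluster 10. Reads from an intronic transcript and from unspliced Nrxn3 RNA cannot be told apart here.

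**Figure D5:**
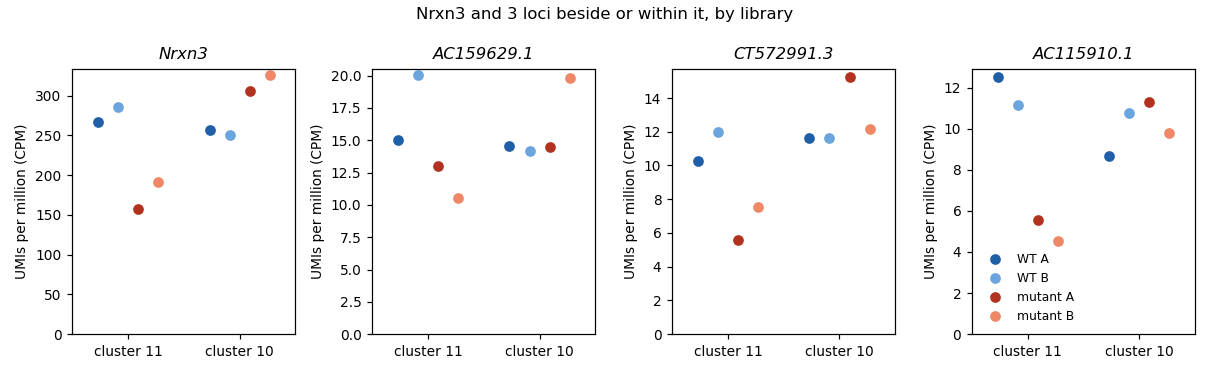
CPM of Nrxn3, AC159629.1, CT572991.3 and AC115910.1 in clusters 10 and 11, with 1 point per library. In cluster 11 the mutant libraries were below the WT libraries for each of the 4 transcripts, and in cluster 10 the mutant libraries of Nrxn3, at 306 and 326 CPM, were above the WT ones.

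Of the other genes near the members, the last exon of Kcnh1 overlaps the gene Hhat on the opposite strand without sharing an exon, and whether the counting used strand is not given in the sources used here. Hhat had 13 UMIs in WT and 2 in mutant cluster 11, so that its own level there was too low to compare. Ptpn5, which lies 23017 bp from Tmem86a, was at 67.6 and 61.8 CPM in the other WT ML clusters and at 85.1 and 87.1 CPM in the mutant ones, a log2 ratio of 0.42.

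The same rules were applied to lists of genes of the pathways around the members, which include the members themselves. For cluster 11 of WT, 5.05% of all genes met the rule for higher and 9.52% for lower levels. Of the 11 genes of the TMEM86 family and of ether lipid metabolism, 10 were in the table and 8 were tested, and Tmem86a was the 1 that met the rule, lower in WT cluster 11. The median log2 ratio of the 8 was −0.25, against −0.02 over all genes tested, and without Tmem86a none of the 7 met the rule and the median was −0.16. Agps, which makes the ether bond, had 477 CPM in WT cluster 11 and 601 CPM in the other ML clusters, and Far1, which supplies its fatty alcohol, had 28.0 and 31.3 CPM. None of the 8 met the rule between genotypes in cluster 11 or in the other ML clusters.

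Of the 23 neurexins and partners, 8 had enough UMIs to test. Nrxn3 and Nlgn2, a neuroligin, were higher in WT cluster 11, the latter with 6.38 against 3.99 CPM, and none was lower. The median of the 8 was 0.04. Without Nrxn3, 1 of 7 was higher, against 5.05% of all genes, and the median was −0.05, so that its sign turned. Nrxn2, another neurexin, had 5.32 and 5.64 CPM and met no rule. Dag1, which encodes dystroglycan, a ligand of neurexins, had 81.2 and 84.4 CPM. Nrxn3 was the 1 of the 8 that was lower in mutant cluster 11.

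Of the 8 genes of the KCNH family, Kcnh1 and Kcnh2 could be tested, and both were higher in WT cluster 11. Kcnh2, the cardiac ERG channel, had 2.76 CPM in cluster 11 and 1.6 CPM in the other ML clusters from 26 and 76 UMIs. A list of 17 potassium channel genes of epithelia, which holds Kcnh1 as well, had 5 that could be tested, of which Kcnh1 was higher and Kcne2, a regulatory subunit, was lower in WT cluster 11, with 2.45 against 12.7 CPM. Kcne2 was also higher in the other ML clusters of the mutant than in WT, with 19.4 against 12.7 CPM, opposite to Kcnh1. Kcnk1, a two-pore channel, had 137 and 154 CPM and met no rule.

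Of the 12 genes of RAS-induced arrest, the setting in which Tmem158 was described, 11 were tested. Tmem158 was the 1 that was higher in WT cluster 11, whereas 3 cell cycle inhibitors were lower, where 9.52% of all genes were lower. Cdkn1a had 151 CPM in cluster 11 and 275 CPM in the other ML clusters, Cdkn2a had 3.72 and 9.41 CPM, and Cdkn2b had 1.91 and 4.43 CPM. Trp53, with 125 and 127 CPM, and Mdm2, with 55.6 and 65.9 CPM, met no rule. The median of the 11 was −0.19, and −0.22 without Tmem158. None of the 7 tested between genotypes in cluster 11 met the rule.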

How the data were processed

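Libraries were made with the 10x Chromium 3′ v2 chemistry, and the submitters' processing notes name bcl2fastq 2.20, CASAVA 1.8, GSNAP and GRCm38. The authors deposited a signal table in which the UMIs of each cell had been multiplied by 1 factor, together with clusters and classes from Partek Flow (Seurat, resolution 0.6). The smallest nonzero value of a cell was taken as 1 UMI. The quotient of each value by it was whole, to within 0.02, for 100% of 60853305 values and was taken as the UMIs. Every cell was used. Scrublet (expected rate 6%) called 2 cells (0.00617%) as doublets, and its calls were not usable, so none were removed. An alternative left out the 6% of cells with the highest scores, which are not known to be doublets. No count model was fitted.

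The genes and lists were chosen with earlier results of these data known. Named were the 4 genes, the genes of 5 lists and, for each of the 4, the 5 genes with the highest Pearson r of log2(CPM + 1) over clusters 1 to 11 in WT among genes with at least 500 UMIs. Gene positions are from GENCODE M21 (GRCm38). Values of some list genes are not reported here. The rules were checked on simulated data. Alternatives were leaving out each library, TMM factors, means over cells, other minimums and folds, thinning, doublet scores, other cell sets and rebuilt clusters. Software was scanpy 1.11.5, igraph 0.11.9, scipy 1.17.1, pandas 2.3.3, numpy 2.4.6 and matplotlib 3.10.9 under Python 3.11.15, with a seed of 1.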

Additional observations from a re-analysis of the deposited data

Results flagged for a closer look

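The mutant and WT libraries differed in opposite directions in some pairs of clusters, and whether the clusters differed from each other was not tested. For Tmem158, both mutant libraries were above both WT libraries in cluster 10, with a log2 ratio of 0.24, and below them in cluster 11, with −0.13. For Nrxn3, both mutant libraries were above both WT libraries with a log2 ratio of 0.29 in cluster 5, 0.26 in cluster 6, 0.17 in cluster 7 and 0.32 in cluster 10, and below them with −0.65 in cluster 11. In a rebuilt cluster that held 83.5% of the WT and 80.1% of the mutant cells of cluster 10, an alternative chosen after seeing the data, the ratios were 0.10 for Tmem158 and 0.26 for Nrxn3.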

How the results depend on the processing

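Over the alternatives run, the log2 ratios of the 4 genes in cluster 11 against the other ML clusters of WT kept their direction. Against 1.57 for Tmem158, −1.82 for Tmem86a, 0.81 for Nrxn3 and 1.8 for Kcnh1, they were 1.48, −1.71, 0.88 and 1.91 in a cluster rebuilt without these genes, which held 77.8% of the WT cells of cluster 11. Of the WT cells in that rebuilt cluster, 66.9% were cluster 11 cells. The log2 ratios were 1.48, −2.05, 0.58 and 1.64 without clusters 5 and 6, where Nrxn3 no longer met the rule, and 1.68, −1.56, 0.97 and 1.87 against clusters 1 to 10. Means over cells gave −2.08 for Tmem86a, 0.71 for Nrxn3 and 1.72 for Kcnh1, thinning gave −2.07, 0.63 and 1.91, and leaving out the highest doublet scores gave 1.61 for Tmem158, −1.90 for Tmem86a and 1.86 for Kcnh1. Between genotypes in cluster 11, Tmem158 was at −0.22 with TMM factors and −0.23 in the rebuilt cluster, and thinning gave −0.83 for Nrxn3 and −0.64 for Kcnh1. Without mutant library A, Nrxn3 was at −0.53 and no longer met the rule. Leaving out 1 library at a time gave −0.20 to 0.19 for Tmem86a, whose lowest value was without mutant library B. After thinning, values whose interval had left out no difference turned for the log2 ratio of Nrxn3 in LI, from −0.19 to 0.0624, and for the co-detection of Tmem86a with Nrxn3 in WT cluster 11, from 1.24 to 0.93 of the product, and the cause was not tested. Values near no difference also turned, Nrxn3 in LP from −0.17 to 0.0238 after thinning and to 0.73 without cells holding a mature luminal marker UMI, Tmem158 with Tmem86a in WT cluster 11 from 1.01 to 0.92 after thinning, and Tmem86a in 3 alternatives for cluster 10 and 4 for cluster 11. In LP, Tmem86a no longer met the rule at 0.50 without the highest doublet scores and 0.43 without cells holding a mature luminal marker UMI, and Tmem158 passed 1.5-fold under 4 alternatives. Genes higher in cluster 11 of WT numbered 758, and 1996 without a minimum, 1183, 501 and 325 at minimums of 20, 100 and 200 UMIs, and 152 at a fold of 2. Genes lower numbered 1429, and 4623 without a minimum, 815 at 200 UMIs and 729 at a fold of 2. Genes higher in the mutant in cluster 11 numbered 276, and 1628, 586, 106, 32 and 20 under the same 5 changes, and 113 to 599 without 1 library (113 without WT B, 175 without WT A, 499 without mutant A, 599 without mutant B). Genes lower there numbered 324, and 2401, 656, 127, 53 and 83, and 169 to 750 without 1 library (169 without WT B, 192 without WT A, 564 without mutant A, 750 without mutant B). For other cell sets, pairs and genes, 216 values moved by less than the standard deviation over libraries, 50 by more and 2 turned. In all, 9 of them changed sign or crossed a co-detection ratio of 1. No paired analysis was possible because the table does not give the replicate numbers of the libraries. The UMIs of Kcnh1, at most 252 per library in cluster 11, limit its precision.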
